A study of Homo sapiens with 20 samples.

Results

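MAP kinase cascades relay signals by serial phosphorylation, and protein phosphatases reverse such phosphorylation. The genes described here were the members of both classes in splicing tables from HEK293T cells, a human embryonic kidney line. They were chosen by gene symbol alone: kinases and partners named MAPK, MAP2K, MAP3K, MAP4K or casein kinase (CSNK1, CSNK2), and phosphatases named PPP1 to PPP6 (catalytic or regulatory), PPM1, DUSP, PTPN or PTPR. The rule found 107 of the 7112 genes with a listed event, with 312 of 19275 distinct splicing events. The kinase group held 40 genes and 104 events, and the phosphatase group 67 genes and 208 events. A few symbols in the kinase group do not name kinases, among them the scaffolds MAPK8IP2 and MAPK8IP3 and the antisense RNA MAPKAPK5-AS1.

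Cells were treated for 24 hours with MLN8237, an inhibitor of the mitotic kinase Aurora-A, against DMSO as the vehicle. Others were transfected for 48 hours with siRNA against SRSF1, SRSF2, SRSF7 or SF3B5, against the non-targeting siRNA siNT1, or against SRSF3 or RBM39, against the non-targeting siRNA siNT2. Each of the 10 groups had 2 samples, 20 in all, and stranded mRNA libraries were sequenced. The design set out to relate Aurora-A to these splicing regulators. The authors deposited 7 tables, 1 per comparison, with the average percent spliced in (PSI, the share of transcripts that include an exon, retain an intron or use a splice site) of both groups for each event they listed. The smallest absolute change in any table was just above 15 points. No spread, read count or p-value was given per event, so no event could be tested here, no error stands beside a PSI, and an event that is not listed cannot be called unchanged. Directions are therefore differences between 2 group averages. The 4 depletions set against siNT1 share that control and the 2 set against siNT2 share the other, so their differences are not independent of each other. Events were named by a fixed rule, and those named beyond it were chosen after their values were seen.

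In the cascade, a MAP3K phosphorylates a MAP2K, which phosphorylates a MAPK, and MAP4K proteins act upstream of the MAP3K step. Casein kinases are constitutively active enzymes with many substrates. PPP-type catalytic subunits gain their substrates through interchangeable regulatory subunits, PPM1 enzymes depend on metal ions and act largely without such subunits, DUSP enzymes include those that inactivate MAP kinases, and PTPN and PTPR are cytosolic and receptor-type tyrosine phosphatases. Alternative exons in such genes often encode linkers, localisation segments or parts of the catalytic domain. SRSF1, SRSF2, SRSF3 and SRSF7 are SR proteins that bind exons and regulate their inclusion. RBM39 is a splicing factor related to U2AF, and SF3B5 is a subunit of the SF3b complex of the U2 snRNP, which recognises the branch point.

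The sequences of short coding exons on which several results turn are given first, each 5′ to 3′ on the coding strand, with the exon in capitals and the 10 neighbouring transcript bases on each side in lower case. They were read from GENCODE transcripts at the position where the gene held a single internal exon of the listed length (GRCh38). The first pair are short exons that were listed in several depletions or with a large change: the 9-base exon of MAP4K4 (chr2:101868029-101868037, plus strand) and the 24-base exon of CSNK1G3 (chr5:123605339-123605362, plus strand). The next exons come from paralogous genes in which exons of one length were both listed: 30-base exons of MAPK12 (chr22:50256935-50256964, minus strand) and MAPK13 (chr6:36136019-36136048, plus strand), 41-base exons of CSNK1G1 (chr15:64259201-64259241, minus strand) and CSNK1G3 (chr5:123553107-123553147, plus strand), and 43-base exons of PTPN3 (chr9:109457173-109457215, minus strand) and PTPN4 (chr2:119877323-119877365, plus strand). The last lines show the 79-base exon of PTPN3 that was listed in 4 tables (chr9:109454496-109454574, minus strand), the 30-base exon of PPP3CB (chr10:73439872-73439901, minus strand), the 54-base exon of PPP2R5D (chr6:43008693-43008746, plus strand) and the 47-base exon of DUSP11 (chr2:73767161-73767207, minus strand).
MAP4K4, 9 bases: caagcctgctGGCGAAGTGgatctgaccg
CSNK1G3, 24 bases: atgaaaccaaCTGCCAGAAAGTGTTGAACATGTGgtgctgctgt
MAPK12, 30 bases: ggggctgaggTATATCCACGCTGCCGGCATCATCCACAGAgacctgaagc
MAPK13, 30 bases: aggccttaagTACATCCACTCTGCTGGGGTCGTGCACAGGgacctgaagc
CSNK1G1, 41 bases: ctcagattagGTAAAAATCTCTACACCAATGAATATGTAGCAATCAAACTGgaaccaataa
CSNK1G3, 41 bases: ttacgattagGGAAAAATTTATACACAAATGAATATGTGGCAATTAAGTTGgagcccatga
PTPN3, 43 bases: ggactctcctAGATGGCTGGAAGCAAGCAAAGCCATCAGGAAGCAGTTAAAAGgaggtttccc
PTPN4, 43 bases: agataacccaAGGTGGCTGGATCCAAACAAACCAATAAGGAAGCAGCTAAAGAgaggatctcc
PTPN3, 79 bases: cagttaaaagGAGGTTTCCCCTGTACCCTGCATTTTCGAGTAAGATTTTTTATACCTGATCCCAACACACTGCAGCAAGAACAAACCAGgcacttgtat
PPP3CB, 30 bases: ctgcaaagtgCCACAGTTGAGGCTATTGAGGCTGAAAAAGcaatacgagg
PPP2R5D, 54 bases: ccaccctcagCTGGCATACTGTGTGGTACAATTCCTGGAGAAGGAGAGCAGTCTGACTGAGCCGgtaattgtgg
DUSP11, 47 bases: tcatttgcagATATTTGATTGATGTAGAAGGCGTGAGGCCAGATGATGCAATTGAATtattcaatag

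No member was listed under Aurora-A inhibition. The authors' MLN8237 table held 205 events in 194 genes, and 0 of them lay in a kinase or phosphatase of these families, a count that allows a share of up to 1.46%. Members made up 1.24% to 1.77% of the listed events in the 6 depletion tables, and that bound lies above the share in 5 of them.

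After the depletions, members were listed in every table, most of all after SF3B5 depletion. That table held 210 member events in 79 genes (70 kinase and 140 phosphatase events), out of 11832 events. RBM39 depletion gave 54 member events in 39 genes (13 kinase, 41 phosphatase), SRSF3 depletion 53 in 40 genes (20 and 33), SRSF2 depletion 34 in 26 genes (14 and 20), SRSF1 depletion 28 in 25 genes (7 and 21) and SRSF7 depletion 23 in 19 genes (8 and 15). The whole tables of these 5 depletions held 3946, 4245, 2738, 2069 and 1768 events, in the order just given. Of the 312 member events, 251 (80.4%) were listed in 1 table, 40 (12.8%) in 2, 15 (4.81%) in 3 and 6 (1.92%) in 4 or more, against 74.0%, 16.8%, 6.34% and 2.88% of the 19162 events in the 6 depletion tables as a whole. The SF3B5 table was the only one to list 32 of the genes (29.9%: 15 kinase, 17 phosphatase), against 24.98% of the 7086 genes listed after any depletion. A further 28 genes (26.2%) were listed elsewhere but not there, against 28.8%.

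**Figure D1:**
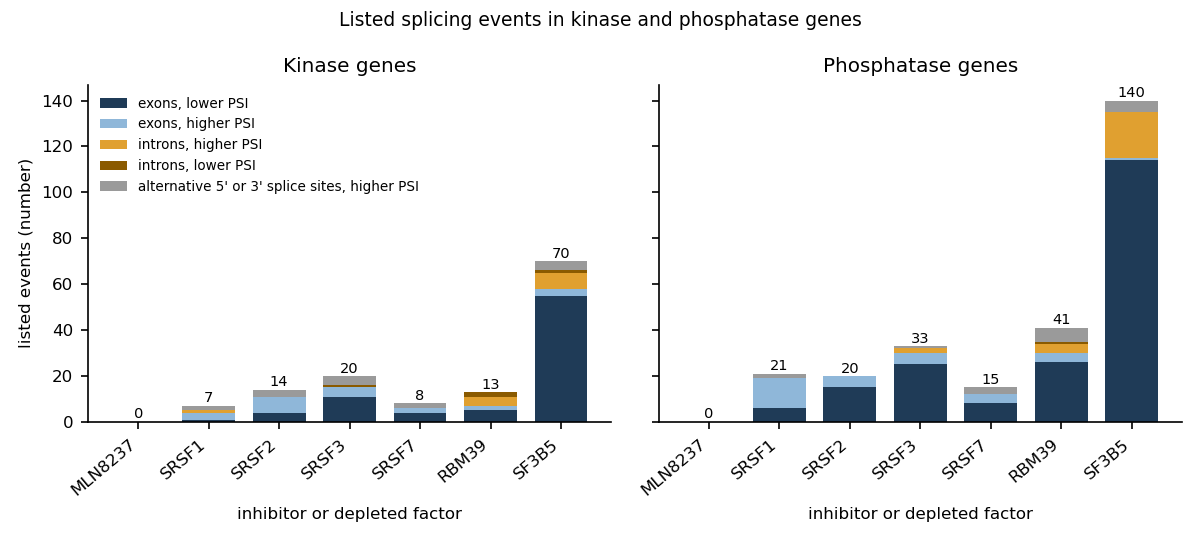
Number of listed events (y axis) in kinase genes (left) and phosphatase genes (right) for the inhibitor and each depleted factor (x axis), split by event type and by direction of the treated group's PSI; the number above each bar is its total. The MLN8237 bars are empty, and the SF3B5 bars hold 70 and 140 events, most of them exons with lower PSI.

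Exons of the members were mostly lower after SF3B5, RBM39 and SRSF3 depletion. After SF3B5 depletion 55 of 58 kinase exons and 114 of 115 phosphatase exons were lower than in siNT1, against 97.9% of all exons in that table. After RBM39 depletion 5 of 7 kinase exons and 26 of 30 phosphatase exons were lower than in siNT2, against 89.3% in the table. SRSF3 depletion gave 11 of 15 and 25 of 30, against 80.9%. The phosphatase shares and the kinase share after SF3B5 depletion lie near those of the whole tables. The kinase shares after RBM39 and SRSF3 depletion, 71.4% and 73.3%, were lower than their tables and rest on 7 and 15 exons.

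Direction was more mixed after the other SR protein depletions. SRSF7 depletion gave lower PSI in 4 of 6 kinase exons and 8 of 12 phosphatase exons, against 78.5% of exons in the table. After SRSF2 depletion 4 of 11 kinase exons and 15 of 20 phosphatase exons were lower, against 73.5%. After SRSF1 depletion 1 of 4 kinase exons and 6 of 19 phosphatase exons were lower, against 62.6%. The exact 95% intervals of these shares (counting error only) were 0.631% to 80.6% for kinase and 12.6% to 56.6% for phosphatase exons. Both classes together gave 7 of 23 exons there, or 30.4% (13.2% to 52.9%). Exons are not replicates of the depletion, so these intervals are no test. Among exons whose siNT1 PSI lay between 20% and 80%, where either direction could be listed, 2 of 10 member exons were lower after SRSF1 depletion, against 50.6% of the table. Among phosphatase exons that differed by at least 25 points, 57.1% of 7 were lower. The difference from the table was not tested, because the members were chosen with these tables known.

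Introns and alternative splice sites were fewer. After SF3B5 depletion 7 of 8 kinase introns and 20 of 20 phosphatase introns were retained more than in siNT1, against 93.3% of introns in the table. After RBM39 depletion 4 of 6 and 4 of 5 were retained more, against 89.5%. SRSF3 depletion gave 0 of 1 kinase and 2 of 2 phosphatase introns, against 54.7%, and SRSF1 depletion 1 of 1 kinase intron, against 66.8%. No member intron was listed after SRSF2 or SRSF7 depletion, where 79.4% and 71% of listed introns were retained more. Alternative splice sites were listed with higher PSI in every case, in members as in all tables, so the sign alone carries no information. Which site of an event was listed could differ between depletions.

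Over all event types, control medians were lower for kinase than for phosphatase events, an untested difference that was small only in the SF3B5 table. Among exons alone it was small in the RBM39 table as well. The median control PSI of kinase events was 15.2% in the SRSF1 table, against 59.0% for phosphatase events and 59.0% for the whole table. For SRSF2 these medians were 46.4%, 85.7% and 67.4%, for SRSF3 56.5%, 90.2% and 78.8%, for SRSF7 51.6%, 70.7% and 70.6%, and for RBM39 51.4%, 73.5% and 67.8%, in the same order. In the SF3B5 table they were 95.3%, 95.5% and 95.1%. These medians pool exons with introns and splice sites, and the kinase values of SRSF1 and SRSF7 rest on 7 and 8 events. Over exons alone, kinase and phosphatase medians were 82.5% and 83.2% for RBM39, and 96.5% and 97.7% for SF3B5. They were 15.3% and 65.2% for SRSF1 (4 and 19 exons), 56.9% and 85.7% for SRSF2, 75.8% and 92.2% for SRSF3, and 65.5% and 74.5% for SRSF7. The median absolute change of kinase events lay between 17.5 and 25.2 points over the 6 depletions. That of phosphatase events lay between 20.5 and 28.2 points, and that of the whole tables between 20.4 and 25.4 points. Only the phosphatase median of 28.2 points in the SRSF7 table, from 15 events, lay over 5 points from its whole table. The share of events that changed by at least 25 points differed more in places, which was not tested. For phosphatase events it was 10% after SRSF2 depletion, against 37.9% of the whole table, and 53.3% after SRSF7 depletion, against 27.2%.

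**Figure D2:**
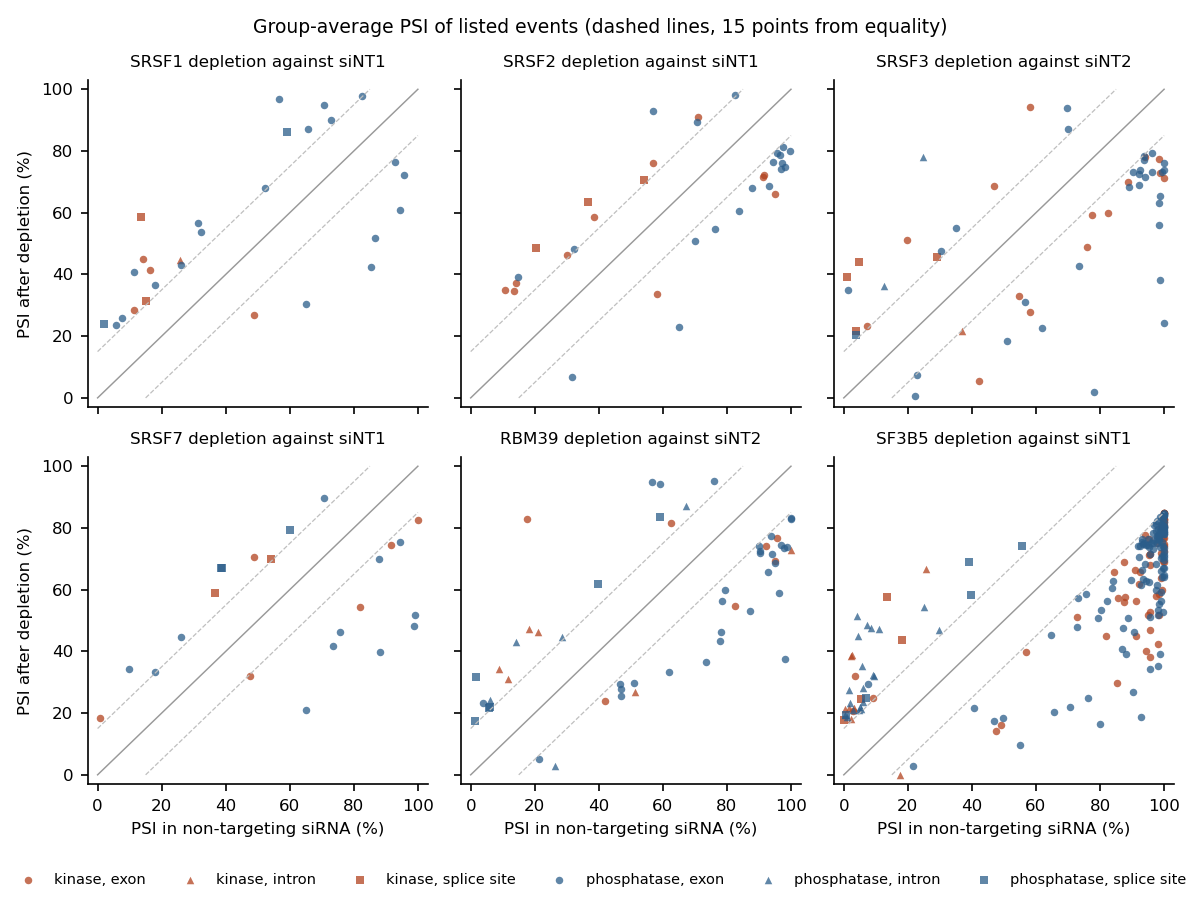
Group-average PSI after depletion (y axis, %) against PSI in the matching non-targeting siRNA (x axis, %), 1 panel per depleted factor; orange marks kinase and blue phosphatase genes, with circles for exons, triangles for introns and squares for alternative splice sites. No point lies between the dashed lines, because changes under 15 points were not listed, and the SF3B5 panel is crowded at control PSI above 90%.

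Among the MAP kinases themselves, 8 genes carried 14 events, spread over 5 of the 6 depletion tables. MAPK8 and MAPK9 encode the JNK kinases JNK1 and JNK2. A 194-base exon of MAPK8 was at 27.8% after SRSF3 depletion, against 58.2% in siNT2 in the authors' averages, and a 69-base exon of the same gene was at 46.3% after SRSF2 depletion, against 30.1% in siNT1. A 93-base exon of MAPK9 was at 51.2% after SRSF3 depletion, against 19.6% in siNT2. The annotation placed these 3 exons in untranslated or non-coding sequence. MAPK12, MAPK13 and MAPK14 encode p38 kinases of the stress branch. The 112-base exon of MAPK12 was at 71.6% after SRSF2 depletion and 56.5% after SF3B5 depletion, against 91.2% in siNT1. Its 72-base exon was at 74.4% after SRSF7 depletion, against 91.6% in siNT1. An 80-base exon of MAPK14 was higher, at 81.5% after RBM39 depletion, against 62.6% in siNT2. MAPK3, the kinase ERK1, had a 132-base exon at 52.9% after SF3B5 depletion, against 95.5% in siNT1. Introns were listed in a further pair of genes: a 353-base intron of MAPK7 (ERK5) was at 46.4% after RBM39 depletion, against 21.2% in siNT2, and a 137-base intron of MAPK15, an atypical MAP kinase, was at 26.8% after RBM39 depletion, against 51.4% in siNT2.

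The MAP2K genes were listed mainly after SF3B5 depletion, which gave the longest table. All 9 of their exons listed there were lower, as were 97.9% of all exons in that table. Near-complete inclusion in siNT1 was the usual starting point. A 46-base exon of MAP2K1 (MEK1, the activator of ERK) was at 68.9% after SF3B5 depletion, against 99.8% in siNT1, and a 41-base exon of MAP2K5, the activator of ERK5, at 58.04% after SF3B5 depletion, against 97.4% in siNT1. MAP2K3 and MAP2K6 activate p38 kinases. The 117-base exon of MAP2K6 was at 82.7% after SRSF7 depletion and 72.4% after SF3B5 depletion, against 100% in siNT1. MAP2K4 and MAP2K7 activate JNK. The 103-base exon of MAP2K4 was at 49.0% after SRSF3 depletion, against 75.8% in siNT2, and at 51.2% after SF3B5 depletion, against 72.9% in siNT1. A rarely used 49-base exon of MAP2K4 was at 18.5% after SRSF7 depletion, against 0.890% in siNT1. MAP2K7 had a 48-base exon at 23.3% after SRSF3 depletion, against 7.12% in siNT2, and a 102-base intron at 38.7% after SF3B5 depletion, against 2.63% in siNT1.

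Among the MAP3K genes, the mixed lineage kinases MAP3K9, MAP3K10 and MAP3K11, which activate JNK signalling, held events in 5 of the 6 depletion tables. A 69-base exon of MAP3K9 was higher in both tables that listed it, at 44.97% after SRSF1 depletion and 37.2% after SRSF2 depletion, against 14.1% in siNT1. For MAP3K10, a 149-base exon was at 66.2% after SRSF2 depletion and 51.8% after SF3B5 depletion, against 95.1% in siNT1, and at 74.1% after RBM39 depletion, against 92.1% in siNT2. A 60-base exon of MAP3K10 was at 34.9% after SRSF2 depletion, against 10.7% in siNT1. A 328-base intron of the same gene was retained more in 3 tables, at 44.8% after SRSF1 depletion and 66.8% after SF3B5 depletion, against 25.7% in siNT1, and at 47.4% after RBM39 depletion, against 18.3% in siNT2. The 105-base intron of MAP3K11 was at 38.7% after SF3B5 depletion, against 2.20% in siNT1. MAP3K3 (MEKK3) had a 137-base exon that was lower in 3 tables, at 54.5% after SRSF7 depletion and 45.1% after SF3B5 depletion, against 81.9% in siNT1, and at 54.5% after RBM39 depletion, against 82.5% in siNT2. A 93-base exon of MAP3K3 was higher, at 41.6% after SRSF1 depletion, against 16.4% in siNT1. An alternative 5′ splice site of MAP3K3 was at 70.6% after SRSF2 depletion and 69.8% after SRSF7 depletion, against 54.2% in siNT1. MAP3K7 encodes TAK1, which links cytokine receptors to JNK and NF-kappaB. Its 46-, 66- and 116-base exons were listed, and the last was at 57.5% after SF3B5 depletion, against 87.7% in siNT1. A 1642-base intron of MAP3K15 was the one member intron that was lower after SF3B5 depletion, at 0% after SF3B5 depletion, against 17.5% in siNT1.

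MAP4K4, a kinase upstream of JNK that also acts on the cytoskeleton, was the most often listed kinase gene of the set, in all 6 depletion tables. Its 9-base exon is shown above and was listed in 4 tables. It was at 26.8% after SRSF1 depletion, 70.7% after SRSF7 depletion and 16.2% after SF3B5 depletion, against 48.97% in siNT1, and at 94.1% after SRSF3 depletion, against 58.3% in siNT2. It was thus higher after SRSF3 and SRSF7 depletion and lower after SRSF1 and SF3B5 depletion. The 192-base exon of MAP4K4 was at 58.6% after SRSF2 depletion, against 38.6% in siNT1, and at 5.42% after SRSF3 depletion and 23.98% after RBM39 depletion, against 42.1% in siNT2. A 129-base exon was at 72.1% after SRSF2 depletion, against 91.5% in siNT1, and at 78.1% after SRSF3 depletion, against 93.9% in siNT2. A 120-base exon was at 34.6% after SRSF2 depletion, against 13.6% in siNT1, and an 87-base exon was lower after both SRSF3 and SF3B5 depletion. All 4 of the longer exons have lengths divisible by 3, as has the 9-base one. The 120-base exon could not be placed, and the others lie in coding sequence. An alternative 3′ splice site of MAP4K4 was used more, at 63.5% after SRSF2 depletion and 59.0% after SRSF7 depletion, against 36.6% in siNT1, and at 45.7% after SRSF3 depletion, against 29.2% in siNT2.

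The other MAP4K genes showed fewer recurring events. In MAP4K2, a 132-base exon was at 33.6% after SRSF2 depletion, against 58.1% in siNT1, and at 33.1% after SRSF3 depletion, against 54.7% in siNT2. MAP4K3, which acts in amino acid sensing and JNK signalling, had a 63-base exon at 76.03% after SRSF2 depletion and 39.7% after SF3B5 depletion, against 56.9% in siNT1, so that SRSF2 and SF3B5 depletion lay on opposite sides of the control. Another 6 exons of MAP4K3 were lower after SF3B5 depletion. In MAP4K5 an alternative 3′ splice site was at 58.7% after SRSF1 depletion and 57.5% after SF3B5 depletion, against 13.5% in siNT1, and an alternative 5′ splice site at 48.6% after SRSF2 depletion, against 20.3% in siNT1. An 84-base intron of MAP4K1 was retained less, at 21.5% after SRSF3 depletion, against 36.9% in siNT2.

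MAPK-associated genes were also listed mainly in that longest table, after SF3B5 depletion, with 13 of 13 exons lower, against 97.9% of all its exons. MAPKAP1 encodes SIN1, a subunit of the mTORC2 complex. Its 82-base exon was at 32.1% after SRSF7 depletion and 14.3% after SF3B5 depletion, against 47.7% in siNT1, and at 68.6% after SRSF3 depletion, against 47.0% in siNT2, on the other side of its control. The other 4 listed MAPKAP1 exons were all lower after SF3B5 depletion. All 3 listed exons of MAPKAPK5 (the kinase MK5) were lower there too, the 86-base one at 57.2% after SF3B5 depletion, against 85.6% in siNT1. A 22-base exon of MAPK1IP1L was at 29.6% after SF3B5 depletion, against 85.4% in siNT1, and an alternative 3′ splice site of that gene at 44.1% after SRSF3 depletion, against 4.67% in siNT2. The JNK scaffold gene MAPK8IP3 had a 171-base exon at 71.1% after SRSF3 depletion, against 100% in siNT2, and a 3552-base intron at 72.7% after RBM39 depletion, against 100% in siNT2. The antisense RNA MAPKAPK5-AS1 had a 145-base exon at 91.1% after SRSF2 depletion, against 71.0% in siNT1, and at 59.4% after SRSF3 depletion, against 77.4% in siNT2. The libraries were stranded, but the sources used here do not say whether the quantification used strand, so reads of overlapping antisense transcripts may not have been told apart.

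The casein kinase 1 gene CSNK1G3 held the largest kinase change of the set. Its product is a membrane-bound form of casein kinase 1 that acts in Wnt signalling. The 24-base exon shown above was at 82.9% after RBM39 depletion, against 17.6% in siNT2, and at 28.4% after SRSF1 depletion, against 11.5% in siNT1. The 41-base exon of the same gene was at 45.05% after SF3B5 depletion, against 91.2% in siNT1, and at 59.9% after SRSF3 depletion, against 82.5% in siNT2. In CSNK1D, whose product phosphorylates circadian PER proteins, introns of 2184 and 4043 bases were retained more after RBM39 depletion, at 34.1% and 30.9%, against 8.96% and 11.7% in siNT2. The 3 kinase exons that were higher after SF3B5 depletion were all in casein kinase 1 genes: a 208-base exon of CSNK1A1 at 31.96% after SF3B5 depletion, against 3.58% in siNT1, a 180-base exon of CSNK1A1 at 20.6% after SF3B5 depletion, against 2.77% in siNT1, and a 236-base exon of CSNK1D at 24.9% after SF3B5 depletion, against 9.12% in siNT1.

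For casein kinase 2, 4 exons of CSNK2A2, which encodes the alpha prime catalytic subunit, were all lower after SF3B5 depletion, each by more than the kinase median of 24.9 points in that table. They were at 42.3% (51 bases), 38.3% (60 bases), 51.6% (98 bases) and 58.5% (84 bases), against 98.1%, 95.7%, 98.6% and 98.3% in siNT1. The median change of these 4 exons was -51.4 points. In CSNK2A1, the alpha catalytic subunit, only an alternative 3′ splice site was listed, at 39.05% after SRSF3 depletion, against 0.870% in siNT2. CSNK2A1 has a near-identical processed copy in the genome, so reads of that event may be shared.

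**Figure D3:**
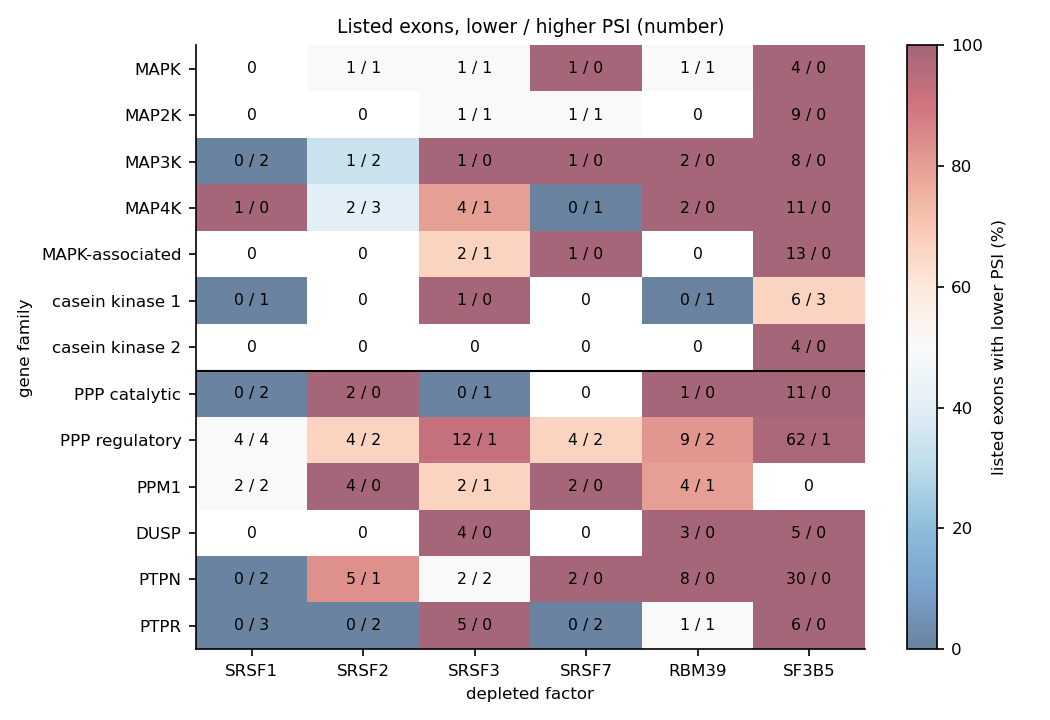
Number of listed exons with lower and with higher PSI (written as lower / higher) for each gene family (rows, kinase families above the black line) and depleted factor (columns); colour gives the percentage that were lower, and cells with 0 exons are white. The SF3B5 column is almost all lower, the PPM1 cell of that column is empty, and the SRSF1 column has more higher than lower exons in 5 of its 8 filled cells.

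The PPP catalytic subunits carried 15 events in 7 genes. All 11 of their exons in the SF3B5 table were lower, against 97.9% of all exons there. PPP3CA, PPP3CB and PPP3CC encode calcineurin A, the calcium-dependent phosphatase. The 30-base exon of PPP3CB was at 87.01% after SRSF1 depletion and 20.2% after SF3B5 depletion, against 65.7% in siNT1. A 30-base exon of PPP3CC was at 56.7% after SRSF1 depletion and 6.90% after SRSF2 depletion, against 31.5% in siNT1, and at 54.9% after SRSF3 depletion, against 35.02% in siNT2. Both 30-base exons were thus higher after SRSF1 depletion. PPP4C encodes the catalytic subunit of PP4. Its introns of 546 and 77 bases were at 51.5% and 45.02% after SF3B5 depletion, against 4.14% and 4.42% in siNT1. A 52-base exon of PPP4C was at 40.6% after SF3B5 depletion, against 86.7% in siNT1, and at 72.5% after RBM39 depletion, against 90.3% in siNT2. PPP6C, the PP6 catalytic subunit, had a 66-base exon at 46.3% after SF3B5 depletion, against 90.6% in siNT1. In the PP1 genes, the 135-base exon of PPP1CB was at 56.2% after SF3B5 depletion, against 82.3% in siNT1, and that of PPP1CC at 80.6% after SF3B5 depletion, against 99.6% in siNT1.

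PP1 regulatory subunits included several exons that were listed in both directions. PPP1R12A and PPP1R12B encode targeting subunits of myosin phosphatase. The 183-base exon of PPP1R12B was at 96.9% after SRSF1 depletion and 92.9% after SRSF2 depletion, against 56.8% in siNT1, and at 1.81% after SRSF3 depletion and 46.2% after RBM39 depletion, against 78.2% in siNT2. Its siNT1 and siNT2 averages differed. The SRSF1 and SRSF2 values lay above both of them and the SRSF3 and RBM39 values below both. Set against the other control, the SRSF1 and SRSF3 values would still pass the listing threshold. The SRSF2 value (92.9%, against 78.2% in siNT2) and the RBM39 value (46.2%, against 56.8% in siNT1) would not. A 41-base exon of PPP1R12B was at 34.3% after SRSF7 depletion, against 9.78% in siNT1, and at 0.470% after SRSF3 depletion, against 22.1% in siNT2. Neither value of this 41-base exon would pass the threshold against the other control, so its listing in both directions depends on the control used. In PPP1R12A, a 132-base exon was at 68.0% after SRSF1 depletion, against 52.4% in siNT1, and at 18.4% after SRSF3 depletion and 29.8% after RBM39 depletion, against 50.96% in siNT2. It too was higher after SRSF1 depletion and lower after SRSF3 and RBM39 depletion. Another 5 exons of PPP1R12B, and 6 of PPP1R12C, were lower after SF3B5 depletion.

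PPP1R13B, which encodes the p53-binding protein ASPP1, had an exon listed in 5 tables, as did PTPRA. This 167-base exon was lower in all 5, at 76.3% after SRSF2 depletion, 75.4% after SRSF7 depletion and 62.8% after SF3B5 depletion, against 94.4% in siNT1, and at 71.5% after SRSF3 depletion and 71.7% after RBM39 depletion, against 93.97% in siNT2. The treated averages thus spanned 62.8% to 76.3%, below both controls. A 138-base exon of PPP1R13B was at 56.03% after SRSF3 depletion, against 98.3% in siNT2, and at 73.1% after SF3B5 depletion, against 96.6% in siNT1. The related PPP1R13L (iASPP) had a 76-base exon at 51.8% after SRSF1 depletion, against 86.7% in siNT1. PPP1R1A, a PP1 inhibitor, had a 156-base exon at 42.3% after SRSF1 depletion, against 85.3% in siNT1, and a 64-base exon at 61.0% after SRSF1 depletion, against 94.5% in siNT1. PPP1R7 (SDS22) binds PP1 through leucine-rich repeats. Its neighbouring exons of 131 and 163 bases were at 48.3% and 51.7% after SRSF7 depletion, against 98.7% and 99.2% in siNT1.

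PPP1R37, another leucine-rich repeat partner of PP1, was listed with 3 exons and 6 introns after SF3B5 depletion. The 98-base exon was at 16.4% after SF3B5 depletion, against 80.1% in siNT1. The 46-base exon was at 26.98% after SF3B5 depletion, against 90.4% in siNT1, and at 78.2% after SRSF3 and 77.3% after RBM39 depletion, against 93.8% in siNT2. All 6 introns were retained more, the 92-base one at 47.7% after SF3B5 depletion, against 8.56% in siNT1. A 21-base exon of PPP1R35, a centrosomal protein gene, was higher in 3 tables, at 43.04% after SRSF1 depletion and 44.8% after SRSF7 depletion, against 25.9% in siNT1, and at 47.7% after SRSF3 depletion, against 30.3% in siNT2. An alternative 3′ splice site of PPP1R21 was at 86.05% after SRSF1 depletion, against 59.03% in siNT1, and a 33-base exon of that gene was lower after both RBM39 and SF3B5 depletion.

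Regulatory subunits of PP2A showed a few large changes. The PPP2R5 genes encode B56 subunits. In PPP2R5D, a 217-base exon was at 24.4% after SRSF3 depletion, against 100% in siNT2. The 54-base exon shown above was at 18.7% after SF3B5 depletion, against 92.9% in siNT1, the largest change of any member exon in that table, and at 68.8% after RBM39 depletion, against 94.97% in siNT2. A 93-base exon of PPP2R5D was at 79.9% after SRSF2 depletion and 52.6% after SF3B5 depletion, against 99.7% in siNT1. A 117-base exon of PPP2R5C was at 17.4% after SF3B5 depletion, against 46.8% in siNT1. PPP2R3C, which encodes another B-type subunit, had 8 exons listed after SF3B5 depletion, all lower, with treated averages from 50.7% to 79.3%. In PPP2R2D, a B55 subunit gene, a 98-base exon was at 46.1% after SRSF7 depletion and 58.5% after SF3B5 depletion, against 75.6% in siNT1.

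PP4 and PP6 regulatory subunits were listed mainly after SF3B5 and RBM39 depletion, whose tables were among the longest. In PPP4R3A an alternative 3′ and an alternative 5′ splice site were both at 66.9% after SRSF7 depletion, against 38.7% and 38.4% in siNT1. A 96-base exon of PPP4R3B was lower in 3 tables, at 42.7% after SRSF3 depletion and 36.6% after RBM39 depletion, against 73.5% in siNT2, and at 57.2% after SF3B5 depletion, against 73.2% in siNT1. An 8951-base intron of PPP4R3B was retained less, at 3.02% after RBM39 depletion, against 26.3% in siNT2. The single phosphatase exon that was higher after SF3B5 depletion was an 89-base exon of PPP4R1, at 29.5% after SF3B5 depletion, against 7.45% in siNT1. An alternative 3′ splice site of PPP4R1 was at 79.4% after SRSF7 depletion, against 60.2% in siNT1, and at 83.7% after RBM39 depletion, against 59.01% in siNT2. After SF3B5 depletion the other site of the same event was listed instead, at 58.3%, against 39.8% in siNT1. The event has 2 sites, so the first was used less there, opposite to SRSF7 and RBM39 depletion. PPP6R3 had 6 exons lower after SF3B5 depletion, among them the 113-base exon at 51.7% after SF3B5 depletion, against 98.02% in siNT1, and a 105-base exon that was higher at 53.6% after SRSF1 depletion and 48.3% after SRSF2 depletion, against 32.3% in siNT1.

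The PPM1 family was listed in every depletion table but that of SF3B5, which held 0 of its events although it was the longest table. The family is small, with 6 genes and 13 events, and 28.8% of all genes listed after any depletion were missing from that table. Its absence was not tested. PPM1K encodes the mitochondrial phosphatase of the branched-chain keto acid dehydrogenase. A 499-base, partly coding exon of PPM1K was at 30.4% after SRSF1 depletion, 23.0% after SRSF2 depletion and 20.9% after SRSF7 depletion, against 65.2% in siNT1, and at 94.3% after RBM39 depletion, against 59.05% in siNT2. It was lower after all 3 of these SR protein depletions and higher after RBM39 depletion. PPM1E had a 200-base exon that was lower in 3 tables, at 67.9% after SRSF2 depletion and 69.97% after SRSF7 depletion, against 87.8% in siNT1, and at 72.5% after SRSF3 depletion, against 92.2% in siNT2. A 255-base exon of PPM1M was at 22.5% after SRSF3 depletion and 33.3% after RBM39 depletion, against 61.9% in siNT2. Its 64-base exon was at 58.9% after RBM39 depletion, against 96.4% in siNT2. PPM1A, which acts on SMAD proteins and stress kinases, had a rarely used 26-base exon at 34.9% after SRSF3 depletion, against 1.45% in siNT2, and an 87-base exon at 40.7% after SRSF1 depletion, against 11.4% in siNT1.

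The DUSP genes were listed after SRSF3, RBM39 and SF3B5 depletion and in no other table, with all 12 exon listings lower. These were the 3 longest tables, in which 80.9%, 89.3% and 97.9% of all exons were lower, and the DUSP listings numbered 16 in all. DUSP11 is an RNA phosphatase of this family. Its 81-base exon was at 38.3% after SRSF3 depletion, against 98.7% in siNT2. The 47-base exon shown above was at 37.6% after RBM39 depletion, against 98.1% in siNT2, and at 39.03% after SF3B5 depletion, against 98.8% in siNT1. DUSP8, DUSP10 and DUSP16 act on JNK and p38 kinases. A 339-base exon of DUSP8 was at 76.3% after SRSF3 depletion, against 100% in siNT2, and a 219-base intron at 48.5% after SF3B5 depletion, against 7.33% in siNT1. An 854-base exon of DUSP10 was at 74.1% after RBM39 depletion, against 90.1% in siNT2. A 164-base exon of DUSP16 was at 79.4% after SRSF3 depletion, against 96.2% in siNT2, and at 77.2% after SF3B5 depletion, against 97.9% in siNT1. DUSP22, an atypical member that acts on JNK signalling, had a 50-base exon at 27.9% after RBM39 depletion, against 46.98% in siNT2, and at 21.5% after SF3B5 depletion, against 40.8% in siNT1.

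Cytosolic tyrosine phosphatases held 50 events in 10 genes. All 30 of their exons in the SF3B5 table were lower, against 97.9% of all exons there. PTPN3 and PTPN4 are paralogues with a FERM and a PDZ domain. The 79-base exon of PTPN3 was lower in 4 tables, at 60.4% after SRSF2 depletion and 60.6% after SF3B5 depletion, against 83.6% in siNT1, and at 73.04% after SRSF3 depletion and 71.9% after RBM39 depletion, against 90.2% in siNT2. In PTPN4, a 45-base exon was at 54.8% after SRSF2 depletion and 24.9% after SF3B5 depletion, against 76.3% in siNT1, and at 56.4% after RBM39 depletion, against 78.5% in siNT2. PTPN13 carries several PDZ domains. Its 99-base exon was at 39.7% after SRSF7 depletion and 39.1% after SF3B5 depletion, against 88.2% in siNT1. A 57-base exon of PTPN13 was at 25.7% after RBM39 depletion, against 46.99% in siNT2, and at 18.4% after SF3B5 depletion, against 49.7% in siNT1.

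PTPN1 encodes PTP1B, which acts on the insulin and leptin receptors. Its single listed event was a 1231-base intron at 78.1% after SRSF3 depletion, against 24.6% in siNT2, and at 47.0% after SF3B5 depletion, against 29.7% in siNT1. Like 28.8% of all genes listed after any depletion, PTPN18 was not listed after SF3B5 depletion, and it held 10 events elsewhere. Its 109-base exon was at 41.6% after SRSF7 depletion, against 73.4% in siNT1, and at 93.8% after SRSF3 depletion, against 69.5% in siNT2, so that these depletions lay on opposite sides of their controls. A 78-base exon of PTPN18 was at 68.6% after SRSF2 depletion, against 93.2% in siNT1, and at 53.2% after RBM39 depletion, against 87.1% in siNT2. The 90-base exon of PTPN18 was at 74.7% after SRSF2 depletion, against 98.1% in siNT1. A 42-base exon was at 39.1% after SRSF2 depletion, against 14.6% in siNT1, and an alternative 3′ splice site at 31.7% after RBM39 depletion, against 1.61% in siNT2. An intron of 366 bases in PTPN18 was at 43.01% after RBM39 depletion, against 14.03% in siNT2. PTPN23 (HD-PTP) acts in endosomal sorting. Its 128-base exon was at 89.98% after SRSF1 depletion and 47.8% after SF3B5 depletion, against 72.95% in siNT1, and at 59.99% after RBM39 depletion, against 79.3% in siNT2. In all, 6 introns of PTPN23 were retained more, 5 after SF3B5 depletion and a 78-base one at 36.1% after SRSF3 depletion, against 12.5% in siNT2.

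Receptor-type tyrosine phosphatases held 12 events in 6 genes. PTPRA, an activator of SRC family kinases, had a 43-base exon in untranslated sequence that was listed in 5 tables. It was at 94.8% after SRSF1 depletion, 89.4% after SRSF2 depletion, 89.7% after SRSF7 depletion and 21.9% after SF3B5 depletion, against 70.7% in siNT1, and at 43.4% after RBM39 depletion, against 77.97% in siNT2. The 3 SR protein depletions lay above the control, and SF3B5 and RBM39 depletion below theirs. PTPRS, a receptor of the LAR group that binds proteoglycans, had a 12-base exon at 31.2% after SRSF3 depletion and 94.9% after RBM39 depletion, against 56.6% in siNT2, and at 9.60% after SF3B5 depletion, against 55.1% in siNT1. A 194-base exon of PTPRS was at 97.9% after SRSF1 depletion and 98.1% after SRSF2 depletion, against 82.4% in siNT1. An 87-base exon of PTPRG was higher at 36.6% after SRSF1 depletion and 33.3% after SRSF7 depletion, against 17.9% in siNT1. A 342-base exon of PTPRA was at 65.5% after SRSF3 depletion, against 98.8% in siNT2, and a 579-base exon of PTPRF (LAR) at 73.3% after SRSF3 depletion, against 96.2% in siNT2.

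**Figure D4:**
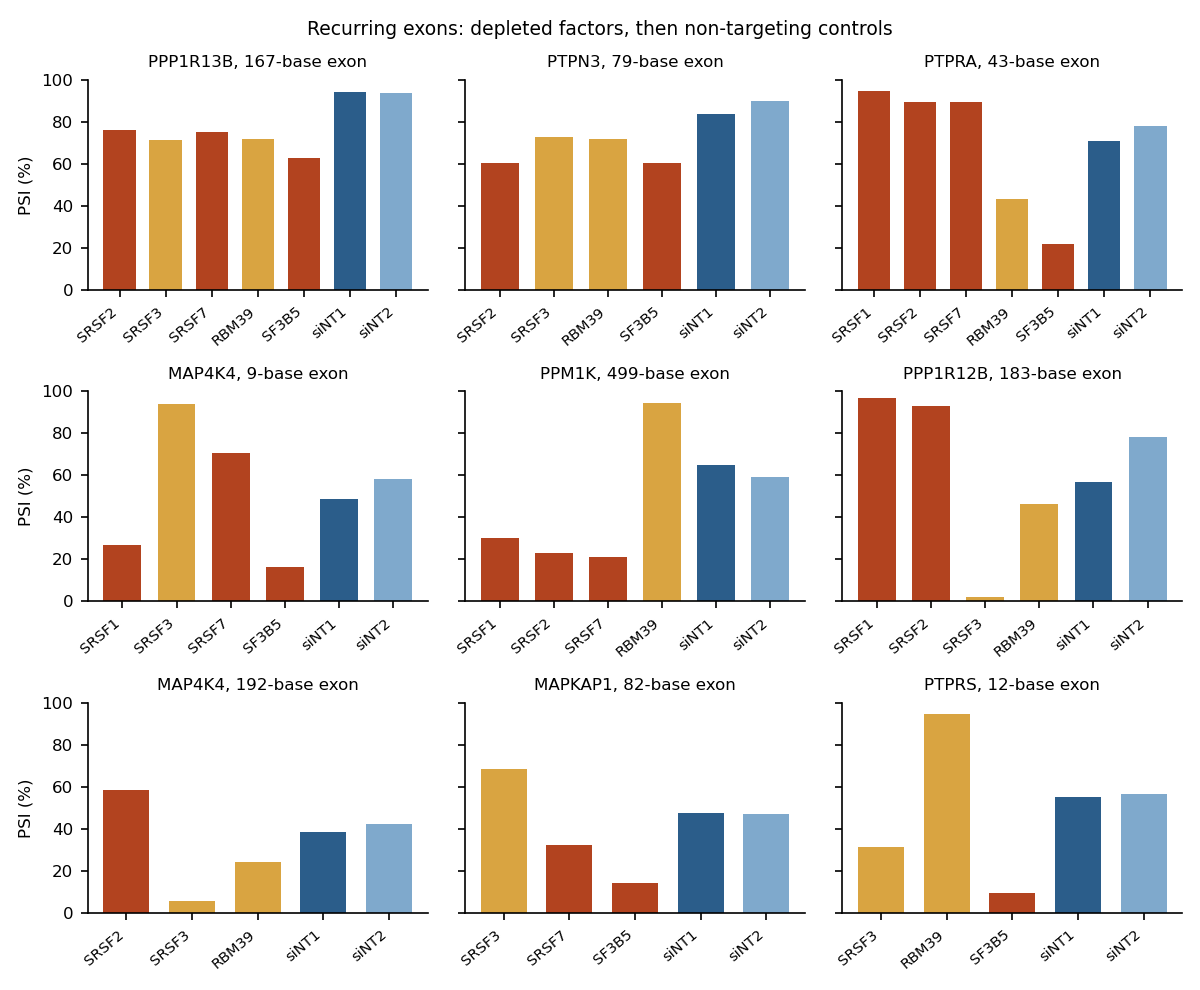
Group-average PSI (y axis, %) of 9 recurring exons after each depletion that listed them (red, set against siNT1; yellow, set against siNT2) and in the non-targeting controls (dark blue, siNT1; light blue, siNT2), without error bars because the files hold averages. The PPP1R13B and PTPN3 bars lie below both controls in every depletion shown, whereas those of MAP4K4, PPM1K, PPP1R12B, PTPRA, MAPKAP1 and PTPRS lie on both sides.

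The values just inside the listing threshold were small by comparison. The smallest absolute change of a kinase event was -15.1 points, for a 110-base exon of MAPK8IP2 at 84.9% after SF3B5 depletion, against 100% in siNT1. The smallest of a phosphatase event was -15.2 points, for a 50-base exon of PPP1R13B at 84.9% after SF3B5 depletion, against 100% in siNT1. Events under the threshold are not in the tables, so no value just outside it can be given.

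Several paralogous members carried listed exons of one length that matched each other in sequence. This was looked for after the values were seen. Among 178 placed coding exons there were 128 pairs of equal length in different genes, and in 12 of them at least 60% of the bases matched position by position. All 12 pairs lay in one family each, and the remaining pairs matched at a median of 24.5% and at most 56.3% of bases. That highest remaining pair, 119-base exons of PPP1R12B and PPP1R12C, also lay in one family. Across families the highest value was 37.8%, for 98-base exons of PPP1R37 and PTPN21. The 41-base exons of CSNK1G1 and CSNK1G3 shared 80.5% of their bases. They were at 40.2% after SF3B5 depletion, against 94.2% in siNT1, and at 45.05% after SF3B5 depletion, against 91.2% in siNT1. The 43-base exons of PTPN3 and PTPN4 shared 76.7%, and were at 67.1% after SF3B5 depletion, against 100% in siNT1, and at 34.4% after SF3B5 depletion, against 95.5% in siNT1. The 79-base exons that follow them shared 65.8%, and that of PTPN4 was at 35.2% after SF3B5 depletion, against 98.04% in siNT1. All 6 of these exons were lower, as were 97.9% of the exons in that table.

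Further matching pairs were listed as well. The 30-base exons of MAPK12 and MAPK13 shared 73.3% of bases. That of MAPK12 was at 65.8% after SF3B5 depletion, against 84.3% in siNT1, and that of MAPK13 at 69.3% after RBM39 depletion, against 95.1% in siNT2. The 30-base exons of PPP3CB and PPP3CC shared 66.7%. The 135-base exons of PPP1CC and PPP1CB shared 83.0%, the highest value of the 12 pairs. How reads that match more than 1 gene were treated is not stated for these tables, so sharing of reads between such exons was not tested.

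Lengths divisible by 3 were counted over all listed exons, coding or not. Over distinct exons, 41 of 79 kinase exons (51.9%) and 67 of 166 phosphatase exons (40.4%) had a length divisible by 3, against 41.4% of the 14593 exons in the series. Among exons with control PSI between 20% and 80%, it was 5 of 10 kinase and 17 of 28 phosphatase exons (60.7%), against 47.2% in the series. Above 80% it was 48.3% of kinase and 35.4% of phosphatase exons, against 39.6%. Median exon lengths were 86, 96 and 100 bases for kinases, phosphatases and the series. Exons of up to 27 bases numbered 3 for kinases (3.80%) and 4 for phosphatases (2.41%), against 1.61% of exons in the series. Of the kinase exons, 57 of 79 could be placed at a single GENCODE exon of that length, and 50 of these were fully coding. Of the phosphatase exons, 141 of 166 were placed and 128 were fully coding. Members' introns had median lengths of 340.5 bases for kinases and 296 bases for phosphatases, against 382.5 bases in the series.

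The non-targeting groups gave a view of how far PSI differed without a depletion. They came from different sets of libraries, and 44 member events were listed against both. The median absolute difference between siNT1 and siNT2 was 3.41 points for these events, against 2.72 points for the 3392 events of the whole series. Only 2 member events differed by at least 10 points, both in PPP1R12B: the 183-base exon at 56.8% in siNT1 and 78.2% in siNT2, and the 41-base exon at 9.78% and 22.1%, in the same order. In the series 340 events (10.0%) differed by that much. The difference for the 183-base exon, 21.5 points, exceeds the listing threshold, and it stands beside the depletion values of that exon given above. Events enter this comparison only if listed in both sets, so it says nothing about the others.

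**Figure D5:**
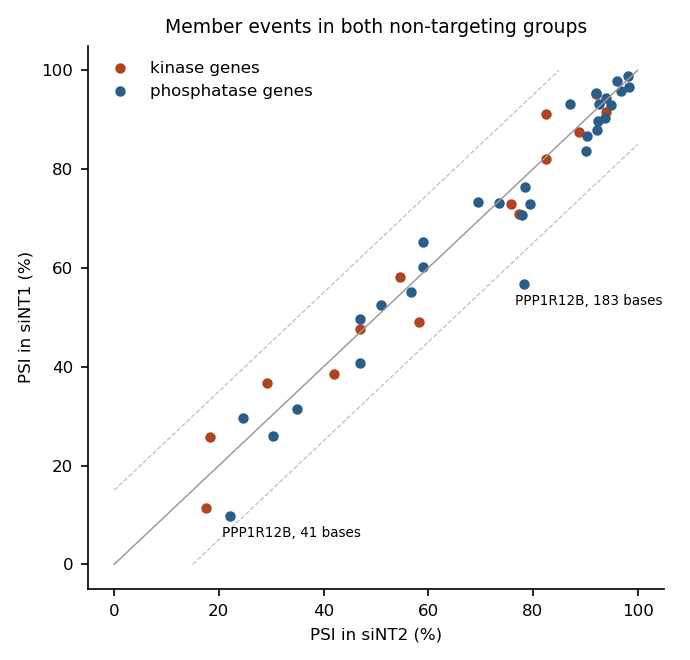
PSI in siNT1 (y axis, %) against PSI in siNT2 (x axis, %) for the 44 member events that were listed against both controls, with kinase genes in orange and phosphatase genes in blue; dashed lines mark 15 points from equality. All but the 183-base exon of PPP1R12B lie between the dashed lines.

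Genes that act around these families were listed in the same tables. Of 46 RAS, RAF, adaptor and MAP kinase effector genes, 31 had a listed event. No such share over all genes can be given, because the tables name only genes with a listed event. Their exons were lower and higher in number 1 and 4 after SRSF1, 9 and 5 after SRSF2, 19 and 2 after SRSF3, 3 and 0 after SRSF7, 8 and 0 after RBM39, and 47 and 2 after SF3B5 depletion, and 0 events were listed under MLN8237. In the same order, 62.6%, 73.5%, 80.9%, 78.5%, 89.3% and 97.9% of all exons in these 6 depletion tables were lower. GAB1, an adaptor of receptor kinases, had exons of 221 and 226 bases at 24.1% and 30.3% after SRSF3 depletion, against 98.8% and 99.5% in siNT2. Its 90-base exon was at 86.97% after SRSF1 depletion, against 57.02% in siNT1, and at 11.9% after RBM39 depletion, against 53.2% in siNT2. LAMTOR3, a scaffold of MEK1 at late endosomes, had a 46-base exon that was lower in 4 tables, at 44.9% after SRSF2, 47.7% after SRSF7 and 12.02% after SF3B5 depletion, against 79.8% in siNT1, and at 46.3% after RBM39 depletion, against 81.9% in siNT2. MKNK2, a kinase downstream of ERK and p38, had a 220-base exon at 82.9% after SRSF1 depletion, against 43.3% in siNT1. SOS1, a RAS exchange factor, had a 45-base exon at 83.1% after SRSF2 depletion, against 48.2% in siNT1.

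Of 51 further protein phosphatases and their regulators, 38 had a listed event, again with no share over all genes to set beside it. Their exons were lower and higher in number 4 and 9 after SRSF1, 9 and 5 after SRSF2, 13 and 1 after SRSF3, 9 and 2 after SRSF7, 12 and 1 after RBM39, and 64 and 0 after SF3B5 depletion, beside the same shares of lower exons in the whole tables. A single event was listed under MLN8237, a 72-base exon of SSH3, a cofilin phosphatase, at 64.05% with MLN8237, against 89.6% in DMSO. A pair of 101-base exons of EYA4, a transcriptional cofactor with phosphatase activity, lay on opposite sides of the control after SRSF1 depletion, at 83.3% and 17.9%, against 23.1% and 77.5% in siNT1. RPAP2, a phosphatase of RNA polymerase II, had a 46-base exon at 22.4% after SF3B5 depletion, against 98.8% in siNT1.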

How the data were processed

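Stranded mRNA libraries of 20 HEK293T samples were analysed by the authors, who used cutadapt, Bowtie and the hg38 build per the submitters' processing notes; the notes name no versions. The deposited tables give, per the file headers, the average PSI of each group in percent, and the authors' difference as a signed score in points; event identifiers are those of VAST-TOOLS. No table gave values per sample (0 such columns were left unused), so no test was made, and depth and the spread between samples are unknown. The labels do not say whether samples of a group were separate cultures, and the depletions themselves were not checked here.

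From these values, members were selected by symbol, and counts, medians, treated-minus-control changes and exact binomial intervals (95%, counting error only) were computed with Python 3.11.15, pandas 2.3.3 and SciPy 1.17.1; figures were drawn with matplotlib 3.10.9. The counting was checked on simulated tables. Event types were read from the identifiers, and exons of up to 27 bases were counted apart. Positions and sequences come from GENCODE release 29 (GRCh38), not from the authors: an exon or intron was placed only where the gene had a single internal one of the listed length. All 107 symbols were found there.

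Members and gene lists were chosen with earlier results of these data known. The rule named, in each depletion and for kinases and phosphatases apart, the 4 highest and 4 lowest changes, every event in 4 or more tables or listed in both directions, the smallest changes, and up to 2 events per table of 2 related gene lists. Alternatives were a threshold of 25 points, control PSI of 20% to 80%, exons above 27 bases, exons only, 1 event per gene, core families only (no casein kinases, associated proteins or PPP regulatory subunits) and updated symbols. An event that the rule named is not reported here.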

Additional observations from a re-analysis of the deposited data

How the results depend on the processing

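The tables hold group averages of selected events, so the listing threshold set what could be counted, and the depth behind each PSI limits precision by an unknown amount. No paired analysis was possible because the tables hold group averages and their columns carry no replicate number; for the same reason no replicate could be left out. Shares of lower exons under MLN8237 could not be computed, since 0 members were listed. Under the alternatives tried, 49 of the 76 values that answer a comparison stayed within their limits and 27 moved. Part of these outcomes was fixed in advance: updating symbols changed no member, and event counts cannot rise under a stricter threshold. The totals are therefore no measure of how robust the results are. Some shares of lower exons crossed 50%: those of kinase exons after SRSF1 (25% as reported) and SRSF2 depletion (36.4%) and of phosphatase exons after SRSF1 depletion (31.6%) lay above it under an alternative given below. With control PSI of 20% to 80%, 50% of kinase exons were lower after SRSF7 and RBM39 depletion (2 exons each), against 66.7% and 71.4% as reported.

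At a threshold of 25 points the kinase events numbered 3 after SRSF1, 3 after SRSF2, 9 after SRSF3, 1 after SRSF7, 7 after RBM39 and 35 after SF3B5 depletion, and the phosphatase events 8, 2, 14, 8, 13 and 61 in the same order. These were 42.9%, 21.4%, 45%, 12.5%, 53.8% and 50% of the listed kinase events. For phosphatase events the shares were 38.1%, 10%, 42.4%, 53.3%, 31.7% and 43.6%. In the whole tables they were 34.2%, 37.9%, 42.5%, 27.2%, 35.6% and 51.3%. The percentage of lower exons at that threshold was 0% of kinase exons after SRSF1 and 100% after SRSF2 and SRSF7 depletion, each from 1 or 2 exons, and for phosphatase exons 57.1% after SRSF1, 50% after SRSF2, 100% after SRSF7 and 100% after SF3B5 depletion. With control PSI of 20% to 80% it was 100% of kinase exons after SRSF1 (1 exon) and SF3B5 depletion (4 exons), and 11.1%, 63.6% and 100% of phosphatase exons after SRSF1, SRSF3 and SF3B5 depletion. In core families after SF3B5 depletion it was 100% of both classes, and with 1 event per gene 100% of phosphatase exons. With 1 event per gene the median absolute change after SF3B5 depletion was 31.9 points for kinases and 31.6 points for phosphatases. As reported, these medians were 24.9 and 22.3 points. The event kept was the one of largest absolute change in its gene, which favours larger values, so no conclusion is drawn from these rises. Fewer events enter each of these alternatives. Leaving out exons of up to 27 bases, counting exons only and updating symbols moved none of these values beyond their limits.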
